A study of Homo sapiens with 6 samples.

Results

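MDA-MB-231 cells, an established human triple-negative breast cancer line, were profiled by RNA-seq for the genes of the nuclear pore complex and of the soluble receptors that carry cargo through it. Genes were taken by symbol: NUP followed by a number, the importin α and β genes (KPNA and KPNB1), the importins (IPO), transportins (TNPO) and exportins (XPO1, XPO4, XPO6 and XPO7), and RANBP2, TPR, NDC1 and CSE1L. This gave 46 of the 23228 listed gene symbols, and 44 of them were among the 12796 genes with enough reads to test. The importin α gene KPNA7 had 1 read in 1 of 6 samples and NUP210L, a relative of NUP210, had 1 read in another. Neither had enough reads for the main test. NDC1 was listed under its older symbol TMEM48, which the symbol rule did not take, and it is given with the other pore genes.

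The 3 control samples carried a stable lentiviral non-targeting shRNA and the 3 PELP1-KD samples a stable lentiviral shRNA against PELP1. Both populations were selected with puromycin and grown in RPMI medium with serum. The knockdown rested on a single shRNA sequence, so an effect of PELP1 loss and an effect of that sequence on other transcripts cannot be told apart. Counts assigned to genes totalled 17304864, 23083404 and 18004958 for the controls, numbered 1 to 3, and 19186990, 20972223 and 23132102 for the PELP1-KD samples, numbered alike. Values are CPM, the read counts of a gene scaled to a common library size, with library totals corrected for composition by the TMM method, and fold changes are PELP1-KD over control on the log2 scale with their standard error (SE). A gene was called when the Benjamini-Hochberg adjusted p of edgeR's quasi-likelihood test, adjusted over all 12796 genes, was below 0.05. The labels do not say that replicates were separate cultures, so p-values measure only the spread between these samples.

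The nuclear pore complex is a ring-shaped channel through the nuclear envelope, built from many copies of a set of proteins, the nucleoporins. Its outer and inner rings form the scaffold, nucleoporins rich in phenylalanine-glycine repeats fill the channel, and filaments extend into the cytoplasm and a basket into the nucleus. Importins bind cargo in the cytoplasm and release it when the small GTPase RAN binds them in its GTP form in the nucleus, whereas exportins bind cargo together with RAN-GTP and release it in the cytoplasm. XPO1 is the target of drugs used against blood cancers.

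PELP1, the nuclear receptor coregulator and scaffold protein targeted by the shRNA, had 57.2, 56.1 and 60.2 CPM in the control samples and 28.6, 29.9 and 30.3 CPM in the PELP1-KD samples. Each PELP1-KD sample lay below each control sample, and PELP1 fell by 48.9% (log2 fold change -0.97, SE 0.0552, adjusted p = 1.48e-11). The cells carried the genes listed as markers of the line, with mean control levels of 2221 CPM for VIM, 1209 CPM for CD44, 701 CPM for CAV1, 424 CPM for MSN and 132 CPM for EGFR. CD44 fell by 0.55, CAV1 by 0.30, EGFR by 0.26 and VIM by 0.21 on the log2 scale in PELP1-KD cells (adjusted p = 8.62e-13, 2.92e-08, 1.07e-05 and 7.19e-06), and MSN was at -0.08 and did not pass the test. The part of these markers in the values of the transport genes was not tested. The estrogen receptor gene ESR1, the progesterone receptor gene PGR and the epithelial cadherin gene CDH1 had between 0 and 4 reads in every sample. The other markers listed as low in this line were detected, with mean control levels of 113 CPM for ERBB2, 9.46 CPM for the epithelial gene EPCAM and 6.98 CPM for the luminal factor GATA3, and none of them passed the test between the groups.

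Among the 44 tested genes, 17 were lower in PELP1-KD cells (38.6%) and 7 were higher (15.9%), while 20 did not pass the test. Over all tested genes 24.2% were called lower and 22.7% higher, so the share of lower calls among pore and transport genes was above the background and the share of higher calls below it. The background also held genes with few reads, such as ACOXL at a control mean of 0.515 CPM, in which small folds are harder to call. Shares were not compared at matched expression levels, here or for the families below. The fold changes of the 44 genes were small. They ran from -0.81 for KPNA3 to 0.20 for NUP155, with a median of -0.04 against 0.0014 over all tested genes, and 29 of the 44 were negative. The median was -0.0203 without control replicate 1, -0.0236 without PELP1-KD replicate 1 and -0.0590 without control replicate 3. The number of higher calls depended on single libraries: 3 genes were higher without control replicate 2, and 4 without control replicate 3, without PELP1-KD replicate 1 or without PELP1-KD replicate 2. NUP153, NUP155 and NUP62 kept their higher call in all 13 alternative settings. Scaling by library totals alone, which leaves out the composition correction, moved the median of all genes to 0.05 and turned the median of the 44 to 0.01. Under that scaling 13 of the 44 were lower and 8 higher, and over all genes 2418 were lower and 3817 higher against 3103 and 2904 with TMM scaling.

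A fold of at least 1.2 set apart the larger changes. By this rule 7 of the 44 genes fell, KPNA3, XPO1, NUP210, NUP43, NUP98, TNPO1 and IPO11, beside a background of 12.7% of all tested genes. A count of 7 of 44 lies near that share. The count of lower genes by this rule was 2 under scaling by library totals. It was 5 without control replicate 1 or without PELP1-KD replicate 2, and 6 without PELP1-KD replicate 3. Without control replicate 1, TNPO1 was at -0.229 and IPO11 at -0.234, short of the log2 threshold of 0.263. No gene rose by at least 1.2-fold (0 of 44 by edgeR at an unadjusted p below 0.05, by DESeq2 and by limma voom), beside 13.3% of all tested genes. In 19 of the 44 genes each PELP1-KD sample lay below each control sample, beside 28.0% of all tested genes, and in 7 each lay above, beside 27.0%. The groups overlapped in the other 18. In bulk RNA, less RNA of a gene per cell and fewer cells that express it cannot be told apart.

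**Figure D1:**
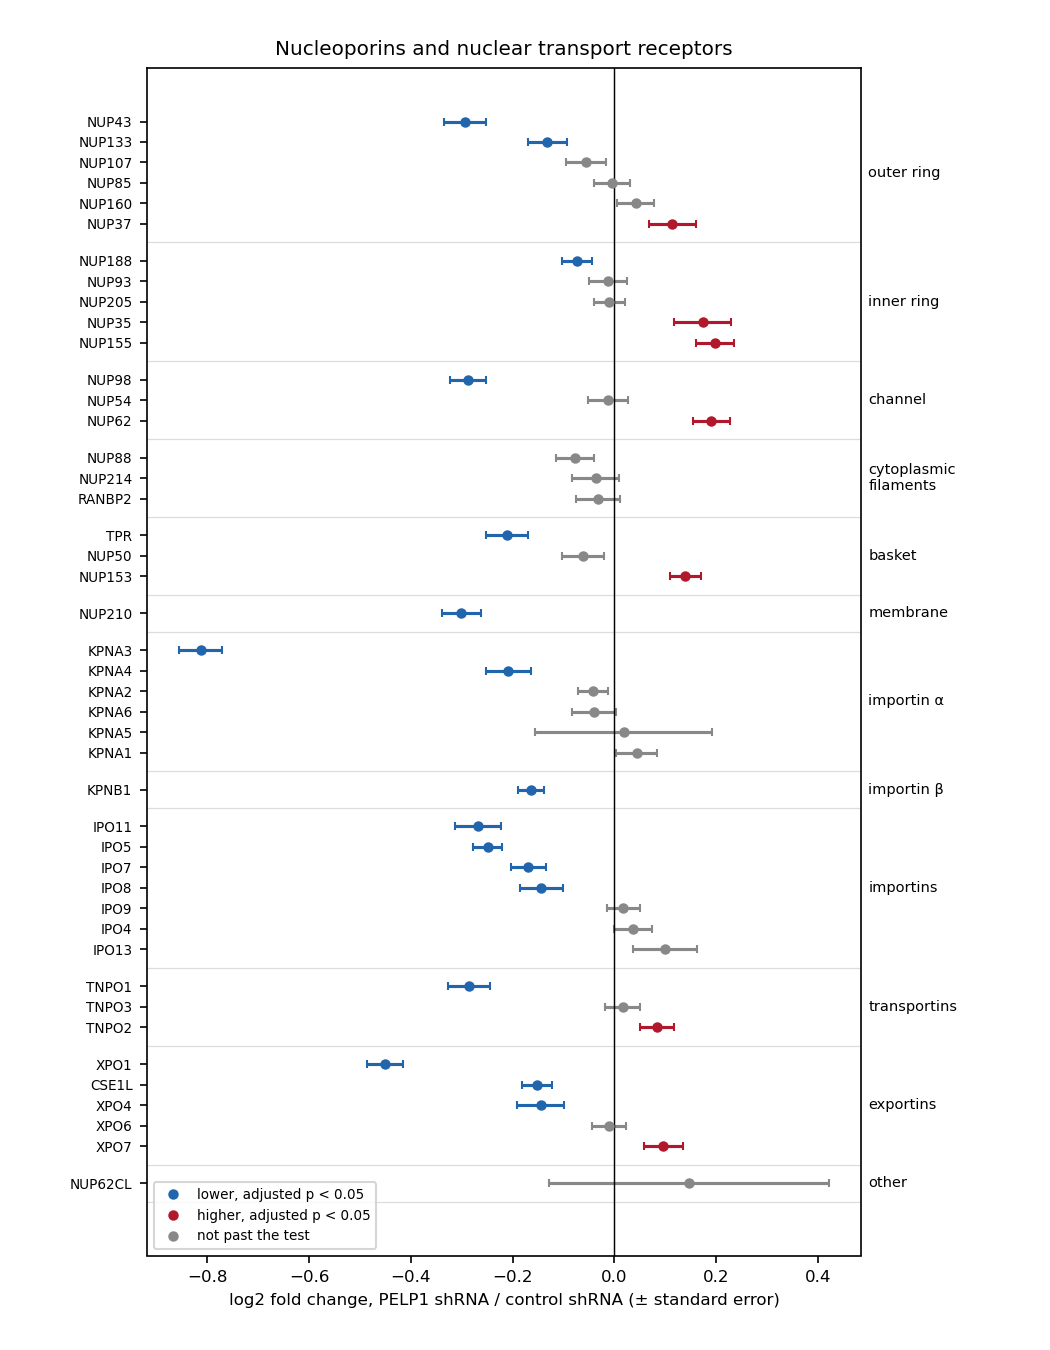
Log2 fold change of PELP1-KD over control for the 44 tested nucleoporin and transport receptor genes, grouped by role; points are edgeR estimates and bars span 1 SE on either side. KPNA3 at -0.81 and XPO1 at -0.45 lay farthest below 0, and the highest was NUP155 at 0.20.

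Transport receptors carried most of the lower calls. Of 22 tested receptor genes, 11 were lower (50%) and 2 higher (9.09%), with a median of -0.09, beside 24.2% lower and 22.7% higher over all tested genes. The 2 higher receptors, TNPO2 and XPO7, rested on single libraries: 0 were higher without control replicate 1, 2 or 3 or PELP1-KD replicate 2 or 3, and 1 without PELP1-KD replicate 1. With DESeq2 0 receptors were higher and the median was -0.14 over 23 genes, KPNA7 included. Of 21 tested nucleoporin genes with an assigned place in the pore, 6 were lower (28.6%) and 5 higher (23.8%), with a median of -0.03, with both shares close to the background. Without control replicate 2, and likewise without PELP1-KD replicate 1, 3 nucleoporins were higher, and 4 were lower without PELP1-KD replicate 3. Their median was -0.0122 without control replicate 1 and -0.0181 without PELP1-KD replicate 1. Under scaling by library totals 9 receptors were lower and 2 higher (median -0.04), whereas 4 nucleoporins were lower and 6 higher and their median turned to 0.02. The difference between these families was not tested. NUP62CL, a NUP62-like gene with a mean of 0.858 CPM in control cells, was counted in neither family and did not pass the test.

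The promoters of KPNA3 and XPO1, the genes with the largest falls among the 44, are shown as the 250 bases before the start site in RefSeq, build GRCh38.p14, 5′ to 3′ on the minus strand on which both genes lie. KPNA3 is at chr13:49792683-49792932 and XPO1 at chr2:61538357-61538606. Capitals mark CACGTG, the E-box bound by MYC and related factors, in KPNA3 and CCAAT, the word bound by the factor NF-Y, in XPO1.
KPNA3: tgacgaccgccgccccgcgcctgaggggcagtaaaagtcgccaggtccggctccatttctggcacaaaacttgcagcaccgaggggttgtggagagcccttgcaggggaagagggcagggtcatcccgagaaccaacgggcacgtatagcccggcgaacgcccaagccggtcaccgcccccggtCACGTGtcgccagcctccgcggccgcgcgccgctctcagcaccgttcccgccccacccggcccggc
XPO1: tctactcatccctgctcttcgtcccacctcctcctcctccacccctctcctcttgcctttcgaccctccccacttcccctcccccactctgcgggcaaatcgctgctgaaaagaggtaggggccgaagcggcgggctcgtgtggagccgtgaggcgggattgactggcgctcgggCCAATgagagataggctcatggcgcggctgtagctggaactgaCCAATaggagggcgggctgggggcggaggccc
The E-box lay 66 bases before the KPNA3 start, and the CCAAT words lay 75 and 32 bases before the XPO1 start. A match describes letters in the window and does not show binding.

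The importin α proteins are adaptors that recognise the classical nuclear localisation signal and bind importin β, and they fall into subfamilies, in which KPNA3 goes with KPNA4, KPNA5 and KPNA6 with KPNA1, and KPNA7 with KPNA2. KPNA3 had 155, 149 and 142 CPM in the control samples and 85.5, 83.4 and 84.9 CPM in the PELP1-KD samples. The groups were far apart, with the PELP1-KD samples within a few CPM of each other. KPNA3 fell by 43.1% (log2 fold change -0.81, SE 0.0416, adjusted p = 2.32e-12), and its fold change ran from -0.85 to -0.76 over the 13 alternative settings. None of the 50-base windows of its transcript with the longest coding sequence occurred in a transcript of another gene (0%). Shared windows made up 17.3% for KPNA2, 18.9% for KPNA1, 10.6% for KPNA5, 9.29% for KPNA6 and 3.93% for KPNA4, so the levels of these genes, and shares of the family computed from them, are less certain.

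The other importin α genes moved less. KPNA4, the closest relative of KPNA3, had 137, 128 and 124 CPM in control and 118, 109 and 111 CPM in PELP1-KD cells, and fell by 0.21 on the log2 scale (SE 0.0446, adjusted p = 0.000657). Its groups did not overlap. KPNA2, which carries many cell cycle and DNA repair proteins, had 458, 449 and 437 CPM in control and 433, 443 and 429 CPM in PELP1-KD samples. These groups overlapped, and the interval of 2 SE around its fold change of -0.04 ran from -0.10 to 0.02. KPNA1 at 0.04, KPNA6 at -0.04 and KPNA5 at 0.02 did not pass the test either, and KPNA5 was expressed at a mean of 3.08 CPM only.

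Levels of different genes can be compared only per length, and RPKM, the CPM divided by the exon length in kilobases, was used for this. In control cells KPNA2 was the most abundant importin α gene, at 143 ± 3.3 RPKM (SD, n = 3). KPNA3 followed with 33.2 ± 1.41 RPKM, then KPNA6 with 14.9 ± 0.655, KPNA4 with 13.8 ± 0.702 and KPNA1 with 13.3 ± 0.119 RPKM. The control samples of KPNA6 ran from 14.5 to 15.6 RPKM and those of KPNA4 from 13.2 to 14.6 RPKM, so their ranges overlapped, with KPNA6 above KPNA4 in each sample. KPNA1, from 13.1 to 13.4 RPKM, overlapped with KPNA4. KPNA5 was at 0.27 RPKM. In PELP1-KD cells KPNA3 was at 18.9 ± 0.24 RPKM, still above KPNA6 at 14.5 ± 0.472, KPNA1 at 13.7 ± 0.436 and KPNA4 at 11.9 ± 0.514.

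KPNA3 made up 15.4, 15.3 and 15% of the summed importin α RPKM in the control samples and 9.68, 9.34 and 9.67% in the PELP1-KD samples. The share of KPNA2 went the other way, from 65.4 ± 0.294% to 70 ± 0.563% (SD, n = 3), while its level in RPKM did not pass the test. The summed RPKM was 218 ± 5.81 in control and 198 ± 1.67 in PELP1-KD cells. With the length of 1 coding transcript in place of all exons, a choice made after the values were seen, the mean share of KPNA3 was 12.7% in control and 7.87% in PELP1-KD cells. By that length KPNA1, at 6.27 ± 0.217% in control cells, ranked above KPNA6 at 5.76 ± 0.143% and KPNA4 at 5.52 ± 0.147%. The order of these genes thus depends on the length used. The log2 ratio of KPNA3 to KPNA4 in CPM, not divided by length, was 0.196 ± 0.0241 in control and -0.408 ± 0.047 in PELP1-KD cells. This difference of -0.605 separated the groups completely, and the two-sided exact permutation test gave p = 0.1, the smallest that 3 samples against 3 allow. The pair was chosen after its values were seen, so this p describes the separation only.

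**Figure D2:**
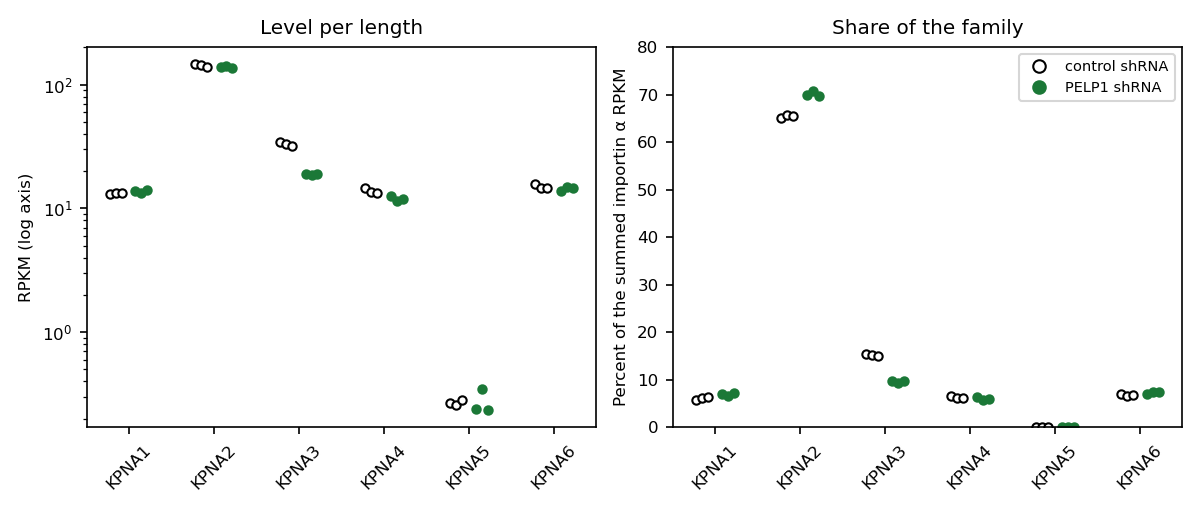
Levels of the importin α genes in RPKM and their shares of the summed importin α RPKM in the 3 control and 3 PELP1-KD samples; open points are control and filled points PELP1-KD samples, and the level axis is a log axis. KPNA3 went from a mean share of 15.2% to 9.56%, and KPNA2 from 65.4% to 70%.

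KPNB1, or importin β, carries importin α and its cargo through the pore and binds many cargoes directly. Its control samples were at 1055, 1016 and 1023 CPM and its PELP1-KD samples at 929, 915 and 917 CPM. The groups did not overlap, and KPNB1 fell by 10.8% (log2 fold change -0.16, SE 0.0256, adjusted p = 2.21e-05).

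Of the 7 importins, 4 fell (57.1%, beside 24.2% of all tested genes) and 3 did not pass the test. IPO5, which imports ribosomal proteins and histones, had 690, 658 and 658 CPM in control and 566, 551 and 571 CPM in PELP1-KD samples. It fell by 15.9% with no overlap between the groups (log2 fold change -0.25, SE 0.0288, adjusted p = 5.16e-07). IPO7, another importer of ribosomal proteins, fell by 0.17 (adjusted p = 0.000403), and IPO8, its close paralog, by 0.14 on the log2 scale (adjusted p = 0.00915). The call for IPO8 was lost under scaling by library totals (adjusted p = 0.0699). IPO11, an importer of ubiquitin-conjugating enzymes, had 133, 122 and 126 CPM in control and 111, 104 and 101 CPM in PELP1-KD samples. All its PELP1-KD samples were below its control samples, and its fold change of -0.27 (adjusted p = 5.53e-05) lay within its SE of that of IPO5. IPO11 shared 10.8% of its 50-base windows with KIF2A, and IPO7 shared 12.4% with other genes. Of the exon bases of IPO11, 17% overlapped LRRC70 on the same strand. IPO4, an importer of histones, was at 0.04, IPO9 at 0.02 and IPO13 at 0.10, with 2 SE on either side reaching from -0.03 to 0.23 for IPO13. IPO4 shared 95.1% of its 50-base windows with an overlapping transcript annotated as AL136295.4, so its count is uncertain.

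The transportins bind a proline-tyrosine type of localisation signal or, for TNPO3, splicing factors rich in serine and arginine. TNPO1, which imports RNA-binding proteins such as HNRNPA1, had 451, 401 and 401 CPM in control and 354, 327 and 346 CPM in PELP1-KD samples. Its groups did not overlap, and it fell by 18% (log2 fold change -0.29, SE 0.0408, adjusted p = 8.27e-06). TNPO2, its close paralog, had 216, 228 and 222 CPM in control and 232, 241 and 233 CPM in PELP1-KD samples. Here the PELP1-KD samples lay just above the control samples (log2 fold change 0.08, SE 0.0338, adjusted p = 0.0486), and the call was lost on leaving out any 1 of the 6 libraries, with DESeq2 and under both other filters on low counts. TNPO3 was at 0.02 and did not pass the test.

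Among the 5 exportins, XPO1 changed most. XPO1, also called CRM1, exports proteins with leucine-rich export signals, ribosomal subunits and some RNAs. Control samples had 663, 623 and 615 CPM and PELP1-KD samples 477, 436 and 478 CPM. The lowest control sample lay well above the highest PELP1-KD sample, and XPO1 fell by 26.9% (log2 fold change -0.45, SE 0.0361, adjusted p = 2.48e-09), with a range from -0.47 to -0.40 over the alternatives. Other genes' transcripts held 2.53% of its 50-base windows. Its promoter is the one printed above with a pair of CCAAT words.

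CSE1L, the exportin that returns importin α to the cytoplasm, had 1033, 981 and 980 CPM in control and 921, 864 and 910 CPM in PELP1-KD samples, and fell by 0.15 on the log2 scale (adjusted p = 0.000267). The log2 ratio of XPO1 to CSE1L in CPM, again not per length, went from -0.655 ± 0.0159 to -0.955 ± 0.0289 (SD, n = 3). The difference of -0.3 again reached the smallest p of the two-sided exact permutation test, 0.1. This pair, like the pair of KPNA3 and KPNA4, was chosen after its values were seen, so this p too describes the separation only. XPO4, an exporter of the translation factor EIF5A, fell by 0.15 on the log2 scale (adjusted p = 0.0131), and this call was lost without PELP1-KD replicate 2 (adjusted p = 0.071) and under scaling by library totals (adjusted p = 0.0861). XPO7, a broad-range transport receptor, had 147, 148 and 152 CPM in control and 156, 165 and 156 CPM in PELP1-KD samples. It was 0.10 higher (SE 0.0374, adjusted p = 0.0396), and lost the call without control replicate 1, 2 or 3 and without PELP1-KD replicate 2 or 3, and with DESeq2. XPO6, the exporter of actin, did not pass the test.

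**Figure D3:**
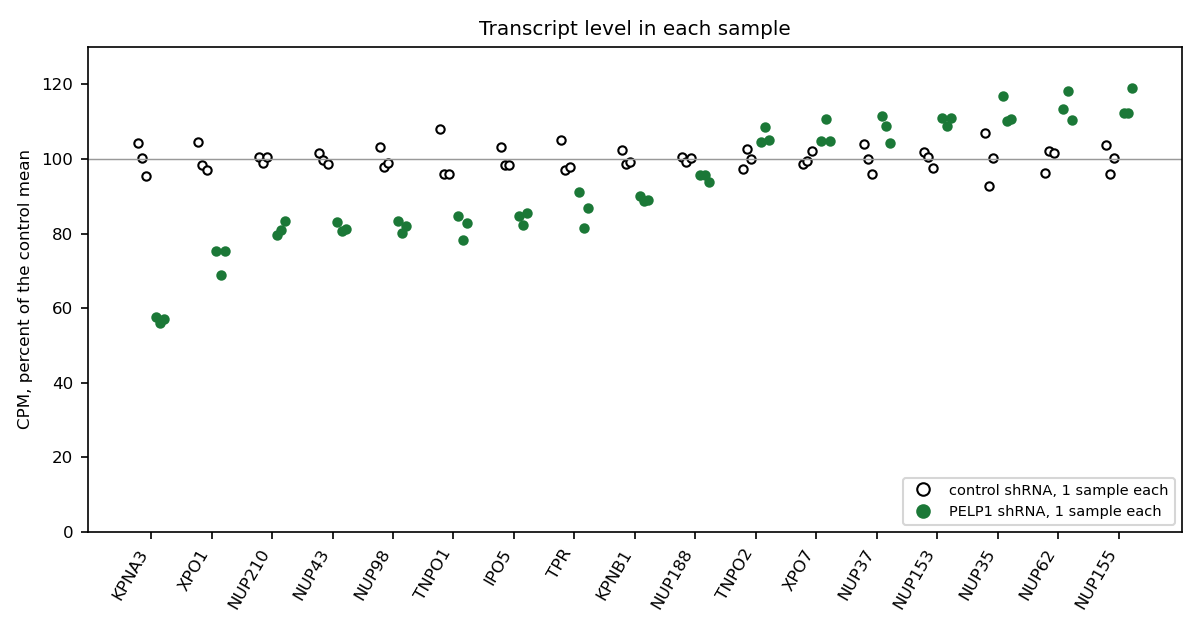
CPM in each of the 3 control and 3 PELP1-KD samples for the 17 of the 44 genes named by the lowest p, each as percent of its control mean; open points are control and filled points PELP1-KD samples. The PELP1-KD points of KPNA3 and XPO1 lie farthest below the control points among these 17, and those of NUP155 and NUP62 lie above.

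Beyond KPNA3 and XPO1, promoters were compared over the whole set. Of the 46 genes, 40 had a RefSeq promoter of 300 bases, from 250 before to 50 after the start, and 5 words were searched on both strands. CCAAT was present in 22 (55%), against 35.7% of all promoters and 36.9% of those of tested genes. CCGGAAG, the word of ETS family factors, was in 11 (27.5%), against 10.7% and 19.8%. CACGTG was in 6 (15%), against 7.43% and 10.1%, and AAGATGGC, the word of YY1, was in 5 (12.5%), against 3.03% and 5.57%. TTTNGCGC, a word of E2F factors, was in 4 (10%), against 1.83% and 3.03%. CCGGAAG and AAGATGGC can overlap in their letters but did so in 0 of these promoters.

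The E-box, the CCAAT word and the E2F word occurred in promoters of lower, higher and uncalled genes, whereas CCGGAAG was in none of the lower and AAGATGGC in none of the higher genes' promoters. CCAAT was in 7 of 14 promoters of genes called lower, 3 of 6 called higher and 11 of 19 uncalled, and the remaining promoter was of an untested gene. CACGTG was in 3, 1 and 2 of these, and TTTNGCGC in 2, 1 and 1. CCGGAAG was in 0 of the 14, 2 of the 6 and 9 of the 19, and AAGATGGC in 1, 0 and 4. Over all tested genes CCGGAAG was in 18.1% of promoters of lower and 17.6% of higher genes, and AAGATGGC in 6.31% and 4.91%. These counts are small and were not tested.

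The scaffold of the pore held calls in both directions, with 2 of 6 outer ring genes lower and 1 higher, and 1 of 5 inner ring genes lower and 2 higher. With 24.2% of all tested genes lower and 22.7% higher, counts of this size in so few genes do not stand apart from the background. The outer ring, or Y complex, lies on the cytoplasmic and nuclear faces of the pore and joins kinetochores in mitosis. NUP43, one of its peripheral subunits, had 104, 102 and 101 CPM in control and 84.9, 82.6 and 83.1 CPM in PELP1-KD samples. It fell by 18.4% with no overlap (log2 fold change -0.29, SE 0.0413, adjusted p = 6.97e-06). NUP37, another peripheral subunit, had 84.3, 80.9 and 77.7 CPM in control and 90.3, 88.1 and 84.4 CPM in PELP1-KD samples. The highest control sample almost touched the lowest PELP1-KD sample, and NUP37 was 0.11 higher at an adjusted p of 0.0498, a call that was lost without control replicate 2 or 3 and without PELP1-KD replicate 1 or 2, with DESeq2 and under both other filters on low counts. NUP133, a subunit of the stem, fell by 0.13 on the log2 scale (adjusted p = 0.00776). Its call was lost without PELP1-KD replicate 3 (log2 fold change -0.10, adjusted p = 0.0669) and under scaling by library totals (-0.08, adjusted p = 0.076). The core subunits NUP107 at -0.06, NUP160 at 0.04 and NUP85 near 0 did not pass the test.

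The inner ring anchors the channel to the membrane. NUP155 had 199, 184 and 192 CPM in control and 215, 215 and 228 CPM in PELP1-KD samples. Its groups did not overlap, and it rose by 14.5% (log2 fold change 0.20, SE 0.0378, adjusted p = 0.000226). NUP35, a membrane-binding partner of NUP155, had 54, 46.9 and 50.6 CPM in control and 59, 55.6 and 55.9 CPM in PELP1-KD samples. It rose by 12.5% (log2 fold change 0.17, SE 0.0559, adjusted p = 0.0148), and the call was lost without control replicate 2 or PELP1-KD replicate 1. NUP188, a large scaffold subunit, had 324, 319 and 323 CPM in control and 308, 308 and 302 CPM in PELP1-KD samples. Its groups were separate but close (log2 fold change -0.07, SE 0.0298, adjusted p = 0.0478), and its call was lost on leaving out any single library but control replicate 1, with DESeq2, with RLE size factors and without a filter on low counts. Scaling by library totals left a fold change of -0.02 (adjusted p = 0.511). NUP205 and NUP93, the remaining scaffold subunits of this ring, were at about 0 and did not pass the test.

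The channel is filled by nucleoporins with phenylalanine-glycine repeats, which bind the transport receptors. NUP98 had 214, 203 and 205 CPM in control and 173, 166 and 170 CPM in PELP1-KD samples. It fell by 18.2% with no overlap between the groups (log2 fold change -0.29, SE 0.0352, adjusted p = 1.1e-06). NUP98 transcripts also encode NUP96, a subunit of the outer ring that is cut from the same precursor, and gene counts do not separate these products. NUP62, the central channel subunit, had 219, 232 and 231 CPM in control and 258, 269 and 251 CPM in PELP1-KD samples. Its PELP1-KD samples were all higher, and it rose by 14.2% (log2 fold change 0.19, SE 0.0358, adjusted p = 0.00019). However, 31.3% of the 50-base windows of NUP62 occurred in transcripts of other genes. Of these 1110 shared windows 467 were shared with ATF5, which overlaps NUP62 on the opposite strand, so its value is uncertain. NUP54, which binds NUP62, did not pass the test.

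The cytoplasmic filament genes NUP88, NUP214 and RANBP2 did not pass the test (0 of 3 by edgeR at an unadjusted p below 0.05, by DESeq2 and by limma voom), beside 24.2% of all tested genes lower and 22.7% higher, and 3 genes are too few to read from that count. NUP88 came nearest, with 170, 166 and 158 CPM in control and 154, 157 and 156 CPM in PELP1-KD samples. Its groups did not overlap, but its adjusted p was 0.0971, and it shared 16.4% of its windows with RPAIN. RANBP2, which binds RAN and is a ligase for the small modifier SUMO, shared 26.6% of its windows with other genes, mainly its copy RGPD3, and its fold change of -0.03 is uncertain. In the nuclear basket the members went in opposite directions. TPR, the main fibre of the basket, had 271, 250 and 252 CPM in control and 235, 210 and 224 CPM in PELP1-KD samples. Its groups were separate, and it fell by 13.6% (log2 fold change -0.21, SE 0.0406, adjusted p = 0.000237). NUP153, which anchors TPR, had 363, 358 and 348 CPM in control and 395, 388 and 395 CPM in PELP1-KD samples. It rose by 10.2% without overlap (log2 fold change 0.14, SE 0.0297, adjusted p = 0.000621), and it shared 8.53% of its windows with another gene. NUP50, a basket subunit that binds importin α, was at -0.06 and did not pass the test, and it shared 15.7% of its windows with other genes. The membrane-spanning NUP210 had 129, 127 and 129 CPM in control and 102, 104 and 107 CPM in PELP1-KD samples. The groups lay clearly apart, and NUP210 fell by 18.9% (log2 fold change -0.30, SE 0.0389, adjusted p = 2.33e-06).

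Across the 44 genes in control cells, levels per length differed widely. CSE1L at 263 RPKM, KPNA2 at 143 RPKM and KPNB1 at 134 RPKM were the highest, all of them receptors. IPO5 at 69.2, NUP153 at 59.1, IPO7 at 58.7 and XPO1 at 54.1 RPKM followed. NUP153 was thus the highest nucleoporin by this measure, before NUP205 at 46.8 and NUP188 at 40 RPKM. The lowest were KPNA5 at 0.27, NUP62CL at 0.46 and NUP214 at 5.73 RPKM. Exon length was summed over all annotated isoforms, so a gene with exons unused in these cells is understated.

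Another 32 genes of the pore, the RAN cycle and RNA export were listed apart from the symbol rule, and all 32 were tested. Of these, 6 were lower (18.8%) and 3 higher (9.38%), with a median of -0.03, beside the background of 24.2% and 22.7%. Under scaling by library totals 4 were lower and 7 higher. TMEM48, the older symbol of NDC1, a membrane-spanning nucleoporin, had 211, 201 and 197 CPM in control and 158, 149 and 154 CPM in PELP1-KD samples. Its groups lay far apart, and it fell by 0.40 on the log2 scale (adjusted p = 2.41e-08). TMEM33, a membrane protein of the endoplasmic reticulum and nuclear envelope, had 153, 138 and 138 CPM in control and 109, 98.5 and 105 CPM in PELP1-KD samples, and fell by 0.45 on the log2 scale (adjusted p = 1.27e-07). XPOT, the exportin for transfer RNA, had 208, 195 and 195 CPM in control and 164, 159 and 162 CPM in PELP1-KD samples, and fell by 0.30 on the log2 scale (adjusted p = 1.04e-06). For TMEM33 and XPOT, too, each PELP1-KD sample lay below each control sample. XPOT shared 10.5% of its windows with other genes.

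NXT2, a partner of the mRNA export receptor NXF1, fell by 0.33 on the log2 scale (adjusted p = 0.00409), whereas NXT1, its paralog with the same partner, rose by 0.25 (adjusted p = 0.00198). NXT1 had 42.2, 48.7 and 51.9 CPM in control and 55.9, 57.5 and 56.8 CPM in PELP1-KD samples, and NXT2 had 14.8, 14.7 and 14.9 CPM in control and 11.7, 12.9 and 10.6 CPM in PELP1-KD samples. RAN itself had 345, 357 and 349 CPM in control and 315, 334 and 324 CPM in PELP1-KD samples, and fell by 0.11 (adjusted p = 0.00645). All PELP1-KD samples of RAN were below the control samples, although by little, and RAN shared 9.98% of its windows with other genes. RANGRF, a RAN-binding factor, rose by 0.27 (adjusted p = 0.000393), but 65.2% of its windows were shared, mainly with SLC25A35. RAE1, an mRNA export factor that binds NUP98, rose by 0.10 (adjusted p = 0.0288), and AHCTF1, also called ELYS, which seeds pores on chromatin after mitosis, fell by 0.14 (adjusted p = 0.0138). AHCTF1 shared 49.2% of its windows with other genes and is uncertain.

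**Figure D4:**
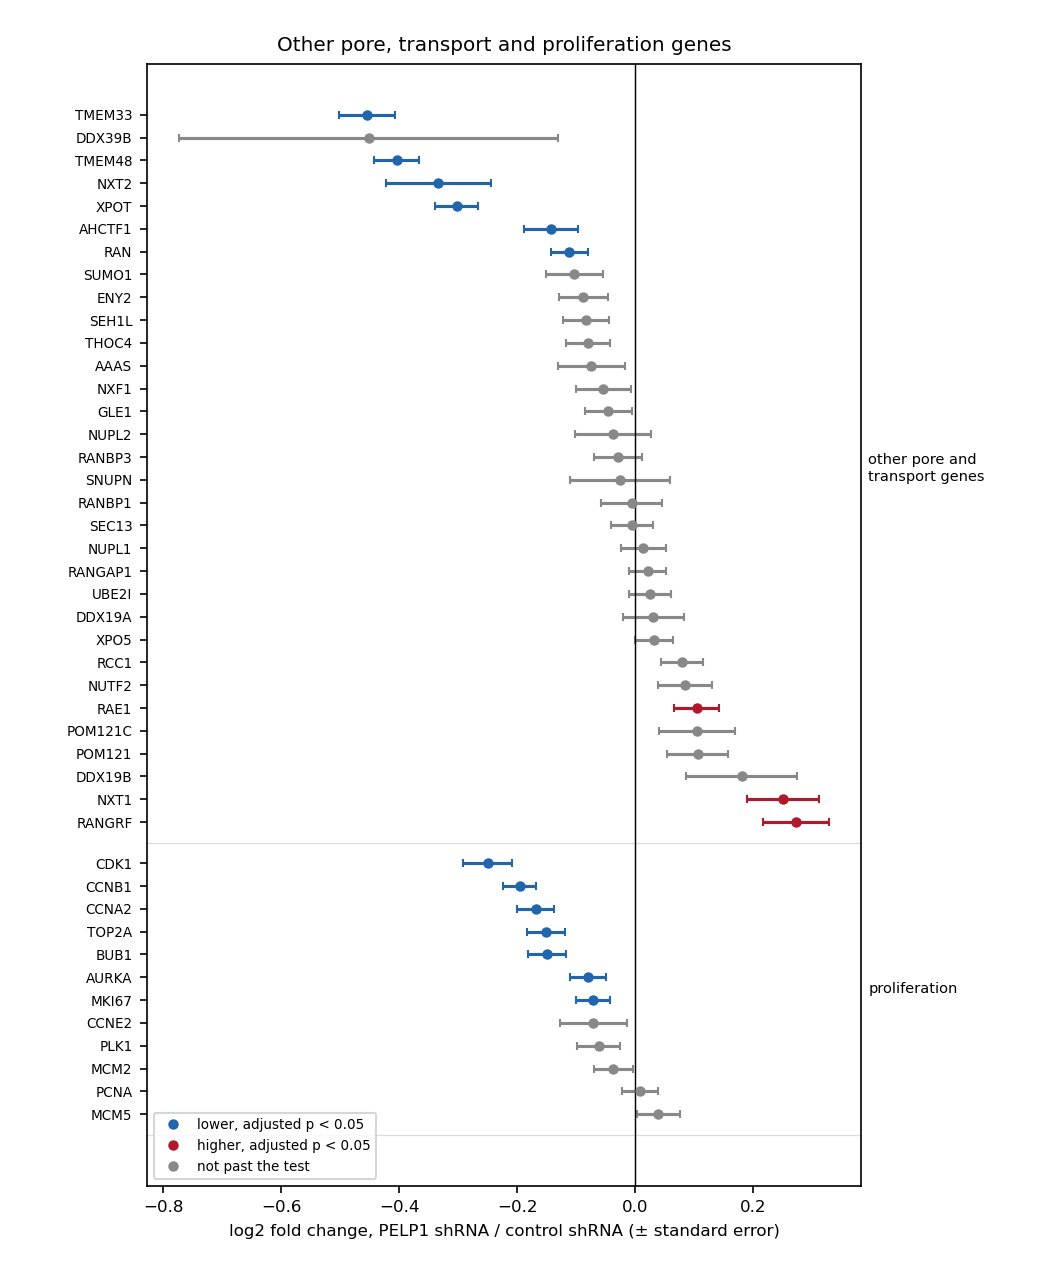
Log2 fold change of PELP1-KD over control for the 32 other genes of the pore, the RAN cycle and RNA export and for the 12 proliferation genes; points are edgeR estimates and bars span 1 SE on either side. TMEM33 at -0.45, TMEM48 at -0.40 and NXT2 at -0.33 lay lowest among the called genes, and RANGRF at 0.27 was the highest called gene. Of the 12 proliferation genes, 7 were called lower (58.3%, beside 24.2% of all tested genes).

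Genes of the cell cycle were listed beside the transport genes. Of 12 listed, 7 were lower and 0 higher by edgeR (0 also at an unadjusted p below 0.05, by DESeq2 and by limma voom, and 1 under scaling by library totals), with a median of -0.08. Their share of lower calls was 58.3%, beside 24.2% lower and 22.7% higher over all tested genes. The number of lower genes was 6 with RLE size factors and without a filter on low counts. It was 5 with DESeq2, under scaling by library totals and on leaving out any single library but control replicate 1. CDK1, the kinase that drives entry into mitosis, had 346, 314 and 307 CPM in control and 282, 256 and 275 CPM in PELP1-KD samples, and fell by 0.25 on the log2 scale (adjusted p = 5.83e-05). CCNB1, its cyclin partner, fell by 0.20 (adjusted p = 1.04e-05). MKI67, a marker of cycling cells, fell by 0.07, with an adjusted p of 0.0499 just under the threshold. TOP2A, CCNA2, AURKA and BUB1 were also called lower. The other 5 genes did not pass the test: PLK1 at -0.06, CCNE2 at -0.07, MCM2 at -0.04, MCM5 at 0.04 and PCNA at 0.01. The lower calls thus did not extend to all listed genes. The part of proliferation in the values of the transport genes was not tested.

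Markers of other cell types were checked because a culture can hold RNA of other origin. Summed over 7 markers of blood, endothelium and fibroblasts, the samples had 104, 180 and 105 reads in control and 369, 461 and 436 reads in PELP1-KD cells. The most abundant, COL1A1, a fibroblast collagen also made by other mesenchymal cells, had 90, 161 and 91 reads in control and 344, 423 and 397 reads in PELP1-KD samples and rose by 1.61 on the log2 scale (adjusted p = 3.23e-10). VWF, an endothelial gene, had 1, 6 and 0 reads in control and 12, 20 and 16 reads in PELP1-KD samples and rose by 2.56 on the log2 scale (adjusted p = 0.000699), with a prior count behind the fold at such levels. PTPRC of blood cells and DCN of fibroblasts had 0 reads in all 6 samples, which allows up to 3 reads, or 0.13 to 0.173 CPM by library, for counting error only. The markers other than COL1A1 summed to 14, 19 and 14 reads in control and to 25, 38 and 39 reads in PELP1-KD samples. Their part in the results was not tested.

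The 3′ untranslated regions of the called genes were compared as a description, chosen after the fold changes were seen. Their median length was 2319 bases for the 17 lower genes, 1197 bases for the 7 higher and 860 bases for the 20 uncalled genes. Over all tested genes the medians were 1589 bases for lower, 812 for higher and 941 for uncalled genes, so lower genes had the longest median in both sets. Among the transport genes the quartiles overlapped widely, at 1148 to 2932 bases for lower, 806 to 1660 for higher and 218 to 3350 for uncalled genes. The A+T content was 63.2% in lower, 59.6% in higher and 64.3% in uncalled transport genes, against 62.8%, 51.5% and 57.1% over all tested genes. Length and fold change had a Pearson r of -0.135 and a Spearman rho of -0.259 across the 44 genes, and -0.121 and -0.169 across 11669 tested genes. For A+T content r was -0.147 and rho -0.055 across the 44 genes, nearer 0 than the -0.217 and -0.314 across the 11669. These are correlations across genes of the same 6 libraries, which are not independent replicates.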

How the data were processed

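RNA from MDA-MB-231 cells with control shRNA or PELP1 shRNA was sequenced in 3 samples per group. The authors deposited raw read counts per gene symbol, and the submitters' processing notes name bcl2fastq, TopHat2, SAMtools, HTSeq and the build hg19; versions, the annotation and the strand setting are not given in the sources used here. Rows of unassigned reads were left out of library sizes. Of the summed rows of each sample, alignments that were not unique made up 32.5 to 32.9%, ambiguous ones 0.657 to 0.688% and those outside genes 7.64 to 8.19%. The row for unaligned reads held 0, and these values are not shares of all reads sequenced. Without a known strand setting, it is unclear how reads on exon bases shared by a gene and its antisense partner were counted.

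Counts were filtered with filterByExpr (minimum count 10), scaled by TMM (factors 0.978 to 1.018) and tested with edgeR 4.0.16 in R 4.3.3, with Benjamini-Hochberg adjustment. limma 3.58.1, DESeq2 1.42.0, other scalings and filters, a replicate block and leaving out each sample were tried. The 2 exact permutation tests of gene ratios were not adjusted further. The procedure was tested on simulated data. Nucleoporins and receptors were taken by symbol, grouped by role, and sample values are given for the lowest p in each role and direction and for the 6 lowest p in each direction; other genes given sample by sample were added after their values were seen. The genes, lists and markers were chosen with earlier results of these data known. RPKM used exon lengths and 50-base windows used transcripts of GENCODE 29, which is annotated on GRCh38 and not on the build of the counts. Windows of a gene came from its transcript with the longest coding sequence. Shared windows are not given for every gene, so a gene without a value is not thereby free of them. Promoters came from RefSeq GRCh38.p14, and hg19 coordinates are not printed. Replicate numbers were not used to pair samples. Limits given for 0 reads cover counting error only.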

Additional observations from a re-analysis of the deposited data

How the results depend on the processing

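Of the 24 genes called among the 44, 16 kept their call in all 13 alternatives (13 lower and 3 higher, the latter NUP153, NUP155 and NUP62), and no call reversed. The other 8 lost it in at least 1: NUP188 and TNPO2 kept it in 4, NUP37 in 6, XPO7 in 7, NUP35, NUP133 and XPO4 in 11 and IPO8 in 12. The number of lower genes ran from 13 to 17. With DESeq2 4 were higher in place of 7, and leaving out 1 sample gave 3 to 5. Scaling by library totals alone moved the median of the 44 from -0.0390 to 0.0105 as that of all genes moved to 0.05. It left 2 genes in place of 7 lower by at least 1.2-fold. Among the 32 other genes it gave 4 in place of 6 lower and 7 in place of 3 higher. Among the proliferation genes it gave 1 in place of 0 higher. Replicate numbers did not pair the samples (correlations of deviations 0.039, 0.065 and -0.078), and with a replicate block 17 genes were lower and 7 higher, 9 in place of 6 of the 32 other genes were lower, and PELP1 stayed at -0.97. The log2 fold change of PELP1 ran from -0.99 to -0.92 over all alternatives. Depth limits KPNA5 and NUP62CL, whose intervals were wide, and KPNA7 and NUP210L, which had too few reads for the main test. The causes of these shifts were not tested.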
